A study of Mus musculus with 16 samples.

Results

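The genes described here encode 10 enzymes and carriers that detoxify peroxide and superoxide: the peroxiredoxins Prdx1, Prdx2, Prdx5 and Prdx6, thioredoxin (Txn1) and its reductase (Txnrd1), the glutathione peroxidases Gpx1 and Gpx4, and the superoxide dismutases Sod1 and Sod2. They were chosen by gene symbol as a functional group, with earlier results of these data known. All 10 had a row among the 24421 genes of the count table. The RNA came from CD11b+ myeloid cells of subcutaneous MC38-Ova tumours, a mouse colorectal carcinoma line that carries ovalbumin, grown in adult C57BL/6 mice with the Kaede transgene. Kaede is a green fluorescent protein that violet light turns red, so that tumours lit through the skin hold red host cells, and host cells that enter afterwards are green. Live cells positive for CD45, Kaede and CD11b and negative for TER119 and NK1.1 were sorted either 24h or 72h after lighting as Kaede-green cells, which had entered since then, or Kaede-red cells, which had been in the tumour since then, with 4 libraries in each of the 4 groups. All groups carried Kaede, bore the same tumour line and were labelled as controls without treatment. The study describes the samples of its bulk RNA-seq as tumours of separate mice, so the p-values measure the spread between mice, though the labels do not tie a library to a mouse or say which Kaede-green and Kaede-red libraries shared a tumour. The colour dates only the arrival of a cell, so the age of a cell that was already in the tumour at lighting is not known.

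Superoxide dismutases turn superoxide into hydrogen peroxide, Sod1 mainly in the cytosol and Sod2 in mitochondria. Peroxiredoxins and glutathione peroxidases then reduce peroxides. Most of the former, though not Prdx6, use electrons that thioredoxin and thioredoxin reductase pass on from NADPH, and the latter use glutathione. Phagocytes make oxidants to kill microbes and for signalling, and these enzymes limit the damage to the cell itself. Several of the genes are known targets of NRF2, a transcription factor that binds antioxidant response elements, and Sod2 is a known target of NF-kB.

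Promoter sequences are shown because these transcription factors are the textbook regulators of the group. RefSeq (build GRCm38.p6) lists a promoter, from 250 bases before to 50 after a transcript start, for 9 of the 10 genes. The core of the antioxidant response element (TGACNNNGC, either strand), which shares its first letters with the site of the factor AP-1, was found in promoters of Prdx1 and Sod1 and in 1 of 3 Txnrd1 promoters, and it occurs in 12.4% of all 32851 listed promoters. In the lines that follow, 25 bases on each side are in lower case and capitals mark the match, which lies on the strand opposite to the gene in each. The windows are on the + strand, which is the strand of the genes, at chr4:116685441-116685499 (Prdx1), chr16:90220681-90220739 (Sod1) and chr10:82859089-82859147 (Txnrd1).
Prdx1: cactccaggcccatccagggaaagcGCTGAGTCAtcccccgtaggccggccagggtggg
Sod1: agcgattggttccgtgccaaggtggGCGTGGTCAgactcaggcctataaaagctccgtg
Txnrd1: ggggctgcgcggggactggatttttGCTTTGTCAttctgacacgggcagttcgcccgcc
A core NF-kB pattern, also searched on both strands and marked in capitals, occurs in 20.7% of the listed promoters. It was found in promoters of Gpx1, Txn1 and Gpx4, the last at a single site covered by 2 of its 4 promoters. The windows are at chr9:108339000-108339059 (Gpx1, gene on the + strand), chr4:57956470-57956529 (Txn1, gene and letters on the - strand) and chr10:80053578-80053637 (Gpx4, gene on the + strand). The match is on the strand opposite to the gene in Gpx1 and Txn1 and on the same strand in Gpx4.
Gpx1: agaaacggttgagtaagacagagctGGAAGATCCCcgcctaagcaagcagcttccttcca
Txn1: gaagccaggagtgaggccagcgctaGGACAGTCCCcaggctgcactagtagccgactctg
Gpx4: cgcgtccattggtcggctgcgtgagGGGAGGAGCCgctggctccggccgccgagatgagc
Neither pattern was found in the listed promoters of Prdx2, Prdx5 and Sod2. A match of letters is not evidence of binding, and these data measured RNA only.

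Reads on the ribosomal RNA precursor Rn45s took a group median of 91.3% and 88.1% of counts in Kaede-green cells at 24h and 72h, and of 75.7% and 68.2% in Kaede-red cells, out of 3216858 to 15423085 counts per library. The 10 genes together took 838 to 1819 counts in the 8 Kaede-green libraries and 2096 to 11859 in the 8 Kaede-red ones, and the smallest count of a gene in a library was 13 (Sod2). Levels are given as CPM, counts scaled to a common total of all counts, after scaling by trimmed mean of M-values (TMM), which sets most genes level between libraries. Libraries of fewer Rn45s reads are therefore compared by the relative level of each messenger RNA, not by its amount per cell. In bulk samples, fewer cells of a type and less RNA per cell cannot be told apart. Macrophage markers were high in every group, with a summed level of 654 to 2091 CPM, whereas the summed levels reached 23.9 CPM for neutrophil, 5.10 for dendritic cell, 5.73 for T and NK cell, 2.45 for B cell and 3.68 for epithelial markers, and the neutrophil granule gene Ngp was at 0 in every library.

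Gpx1, the cytosolic glutathione peroxidase that reduces hydrogen peroxide, had the highest level per length in every group. Its level per kilobase of coding transcripts was 172 ± 55.7 CPM (SD, n = 4) for Kaede-green and 142 ± 14.2 for Kaede-red cells at 24h. At 72h it was 142 ± 19.8 CPM per kilobase in Kaede-green against 92.0 ± 18.8 in Kaede-red cells, and in all 4 groups the lowest Gpx1 library lay above the highest library of the next gene. Gpx1 alone gave 45.1% to 51.4% of the summed level per kilobase of the 10 genes. Prdx5, a peroxiredoxin found in mitochondria, peroxisomes and cytosol, came next with 28.0 to 57.3 CPM per kilobase, followed by Sod1 with 27.3 to 39.7, and the ranges of these neighbours overlapped in every group. The place of Sod1 rests on the length used: over all annotated exons, many of them non-coding, it came seventh. Prdx1, Gpx4, Txn1 and Prdx2 lay between 7.75 and 28.7 CPM per kilobase. Prdx6 (5.39 to 8.48), Txnrd1 (3.09 to 3.88) and Sod2 (1.40 to 2.07) were lowest in every group, in that order. In Kaede-red cells, Prdx6, Txnrd1 and Sod2 did not overlap each other at either time. In Kaede-green cells, Txnrd1 overlapped Sod2 at 24h and Prdx6 overlapped Txnrd1 at 72h. Even Sod2 had a mean level above that of 76.4% of the 9642 genes tested, and Gpx1 above that of 99.1%.

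**Figure D1:**
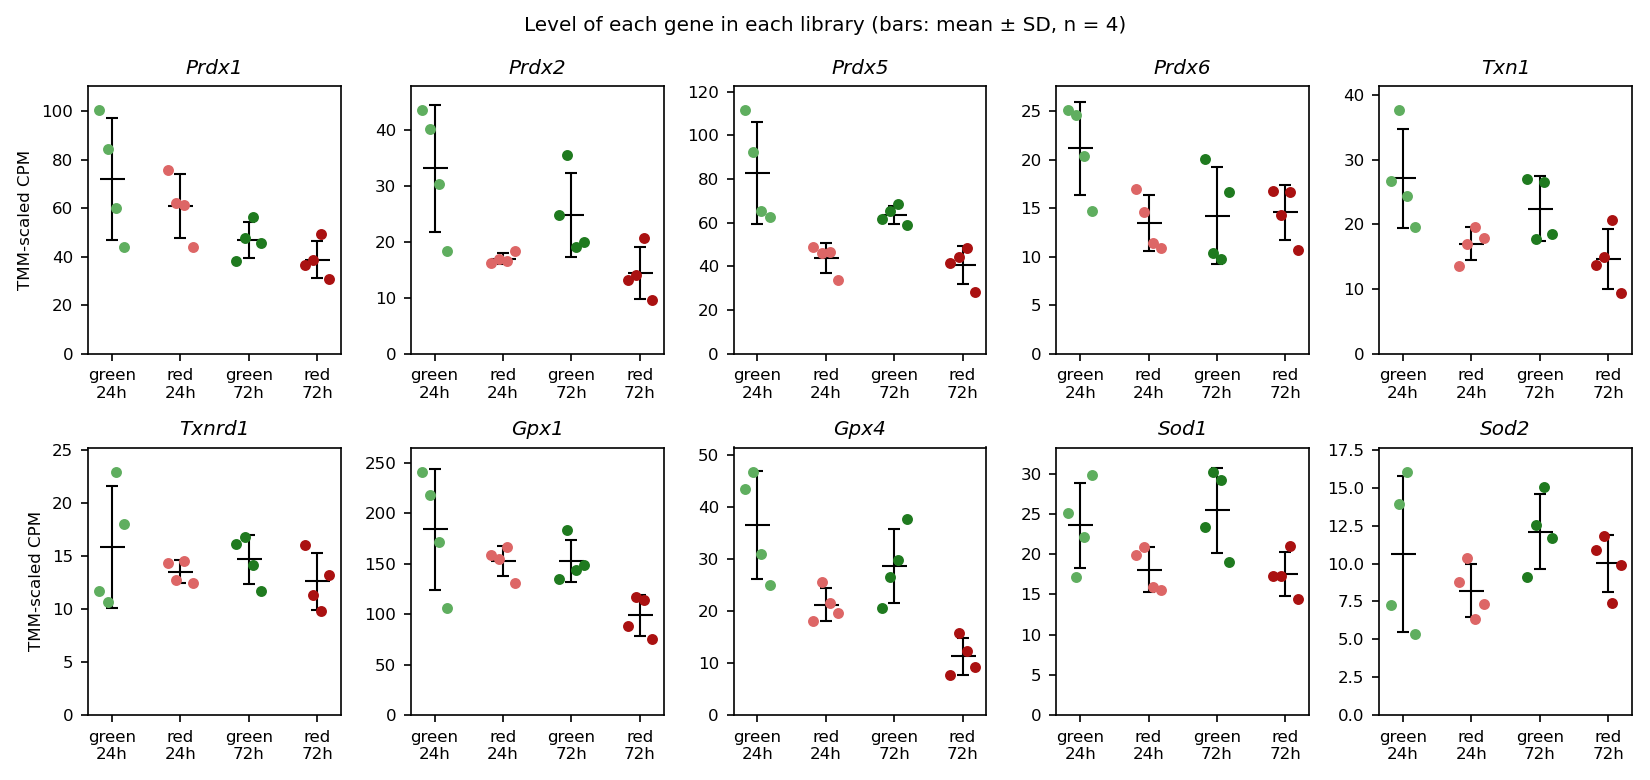
TMM-scaled CPM of each of the 10 genes in each of the 16 libraries, with a separate linear axis from 0 for each gene. Points are libraries in order of replicate number, and bars are the mean ± SD of the 4 libraries of a group. Gpx4 in Kaede-red cells at 72h lay between 7.63 and 15.8 CPM, under every library of the other groups, and Prdx5 in Kaede-red cells lay under every Kaede-green library.

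Comparing Kaede-red with Kaede-green cells asks how transcript levels differ between cells in the tumour since lighting and cells that entered afterwards. In its single-cell data, the paper reports a monocyte cluster mostly of Kaede-green cells and a resident-like macrophage cluster mostly of Kaede-red cells. Time in the tumour and type of cell therefore cannot be told apart in these bulk samples. Over both times, 6 of the 10 genes were lower in Kaede-red cells and none was higher, where 10.3% of all 9642 genes tested were called lower and 20.3% in either direction (edgeR's quasi-likelihood test, Benjamini-Hochberg adjusted p under 0.05), a direction that turned for 7 of the 10 genes, 3 of the 6 among them, when libraries were scaled by their counts outside Rn45s instead. The 6 were Gpx4, Prdx2, Prdx5, Txn1, Sod1 and Gpx1, with log2 fold changes from -1.07 to -0.45. The other 4, Sod2, Prdx6, Prdx1 and Txnrd1, had values from -0.34 to -0.23 and adjusted p from 0.220 to 0.346. The median of the 10 genes was -0.46, beside 0.06 for all tested genes. All 10 genes had at least 10 counts in every library. In a fit of the 3084 genes with that depth, 6 of the 10 were called. Beside them, 711 of the 3084 genes were called lower and 43.8% in either direction. DESeq2 also called 6 of the 10, beside 10.7% of its 21009 tested genes. Fits that left out 1 library called 4 to 6 of the 10, beside 15.9% to 20.5% of all tested genes. As the 10 genes were chosen with earlier results of these data known, these shares are given as description only. Scaling by counts outside Rn45s moved the median of all tested genes to 0.81, called 4 of the 10 genes higher in Kaede-red cells and none lower, and left all 10 below that median, by 0.28 to 1.11. The 4 called higher were Prdx1, Prdx6, Txnrd1 and Gpx1, the last of them called lower after TMM scaling. That scaling, under which 8261 genes passed the filter on low counts, called 5427 of them higher in Kaede-red cells and 234 lower, and offsets for GC content and length called 537 higher and 1461 lower, beside 969 and 990 after TMM scaling. With the Rn45s share as a covariate, Gpx4 was the 1 gene of the 10 that was called, and 156 of all tested genes were called in place of 1959.

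**Figure D2:**
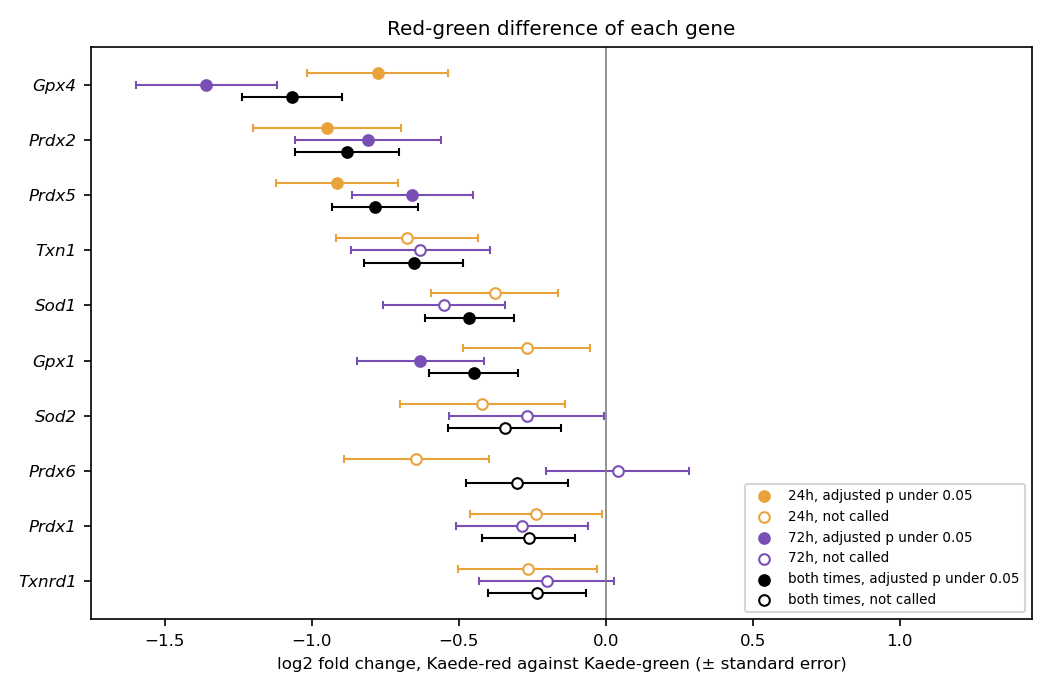
Log2 fold change of Kaede-red against Kaede-green cells for each gene, with bars of 1 standard error. Orange is 24h, violet 72h and black both times, and filled points have an adjusted p under 0.05 by edgeR's quasi-likelihood test. Gpx4, Prdx2 and Prdx5 have filled points in all 3 comparisons, and Prdx6 at 72h lies near 0.

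Gpx4, the selenoenzyme that reduces lipid peroxides in membranes and thereby holds back ferroptosis, had the lowest log2 fold change of the 10 genes at 72h and over both times, while at 24h those of Prdx2 and Prdx5 were lower. Its level was 43.5, 46.7, 30.8 and 24.9 CPM in the Kaede-green 24h libraries and 18.1, 25.5, 21.6 and 19.6 CPM in the Kaede-red 24h libraries. At 72h it was 20.5, 26.6, 29.7 and 37.7 CPM in Kaede-green, against 7.63, 15.8, 12.2 and 9.29 CPM in Kaede-red libraries. The 72h groups did not overlap, with each Kaede-red library under every Kaede-green library, while at 24h 1 Kaede-red library lay just above the lowest Kaede-green library. The log2 fold change in Kaede-red cells was -0.78 (SE 0.24, adjusted p = 0.0425) at 24h and -1.36 (SE 0.24, adjusted p = 0.000123) at 72h by edgeR's quasi-likelihood test. Over both times it was -1.07 (SE 0.17, adjusted p = 1.78e-05), a level 0.477 times that of Kaede-green cells. At 72h this call was kept under all 11 alternative settings, with values from -1.58 to -0.73, whereas the 24h call was lost in 5 of 11, turned direction when scaled by counts outside Rn45s, to 0.14, and was lost without Kaede-green 24h replicate 1 or 2, Kaede-red 24h replicate 1, 3 or 4 or Kaede-red 72h replicate 3, with adjusted p up to 0.141. By its profile over the 16 libraries, in log2 CPM centred on each gene's mean, the tested genes most like Gpx4 were Rpl41 and Rps18, which encode ribosomal proteins, and the interferon-induced gene Ifi27l2a. Their root-mean-square differences from Gpx4 were 0.22, 0.23 and 0.25 log2 units, beside 0.41 for Gpx1, the nearest of the other 9 genes, and a median of 0.99 over all tested genes.

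Gpx1 was called lower at 72h and over both times, and not at 24h. At 24h it was at 241, 218, 171 and 106 CPM in Kaede-green, against 158, 155, 166 and 131 CPM in Kaede-red libraries, and the groups overlapped. At 72h it was at 135, 183, 143 and 149 CPM in Kaede-green, against 87.8, 117, 114 and 75.7 CPM in Kaede-red libraries, which did not overlap. The log2 fold change was -0.27 (SE 0.22, adjusted p = 0.527) at 24h, -0.63 (SE 0.22, adjusted p = 0.0405) at 72h and -0.45 (SE 0.15, adjusted p = 0.0342) over both times in edgeR's test. The call over both times was lost without Kaede-green 24h replicate 1 or 2, Kaede-red 24h replicate 1, 2 or 4, Kaede-green 72h replicate 2 or Kaede-red 72h replicate 1 or 4, with adjusted p up to 0.0839. The 72h call was lost without Kaede-red 24h replicate 1, 2 or 3, Kaede-green 72h replicate 2, 3 or 4 or Kaede-red 72h replicate 1 or 4, with adjusted p up to 0.139. Both calls were also lost with no filter, with the Rn45s share as a covariate and when scaled by counts outside Rn45s. The change of the Gpx1 difference between the times was not called.

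Among the peroxiredoxins, Prdx2 and Prdx5 fell and Prdx1 and Prdx6 did not pass the test over both times. Prdx2, a cytosolic peroxiredoxin known for its abundance in erythrocytes, was at 43.5, 40.1, 30.3 and 18.4 CPM in Kaede-green, against 16.2, 16.9, 16.5 and 18.4 CPM in Kaede-red libraries at 24h. The Kaede-red values stood close together, and the highest of them was just under the lowest Kaede-green value. At 72h Prdx2 was at 24.9, 35.4, 19.0 and 20.03 CPM in Kaede-green, against 13.1, 14.1, 20.7 and 9.56 CPM in Kaede-red libraries, with overlap. The log2 fold change was -0.95 (SE 0.25, adjusted p = 0.0153) at 24h, -0.81 (SE 0.25, adjusted p = 0.0217) at 72h and -0.88 (SE 0.18, adjusted p = 0.000405) over both times by edgeR's test. The 24h call was lost without Kaede-green 24h replicate 1 or 2, with adjusted p up to 0.0657, and the 72h call without Kaede-green 72h replicate 2 or Kaede-red 72h replicate 1, 2 or 4, with adjusted p up to 0.125. Each of the Prdx2 calls was lost with the Rn45s share as a covariate and when scaled by counts outside Rn45s. Summed erythroid markers were at most 8.997 (24h) and 2.34 (72h) CPM in Kaede-green, against 11.4 (24h) and 11.3 (72h) CPM in Kaede-red libraries. Their group medians were 7.61 (24h) and 1.65 (72h) for Kaede-green against 6.33 (24h) and 0.61 (72h) for Kaede-red cells. Erythroid cells could bring Prdx2 and Gpx1 transcripts, and their part in these levels was not tested.

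Prdx5 was the 1 gene of the 10 in which all 8 Kaede-red libraries lay under all 8 Kaede-green libraries. It was at 112, 92.6, 65.2 and 62.6 CPM in Kaede-green, against 48.9, 46.2, 46.6 and 33.8 CPM in Kaede-red libraries at 24h. At 72h it was at 61.8, 65.3, 68.3 and 59.0 CPM in Kaede-green, against 41.5, 44.1, 48.2 and 28.2 CPM in Kaede-red libraries. The lowest Kaede-green library thus stood at 59.0 CPM and the highest Kaede-red library at 48.9 CPM. The log2 fold change was -0.91 (SE 0.21, adjusted p = 0.00446) at 24h, -0.66 (SE 0.21, adjusted p = 0.0242) at 72h and -0.79 (SE 0.15, adjusted p = 0.000159) over both times by edgeR's test. The call at 24h was kept in all 16 fits that left out 1 library, and at 72h it was lost without Kaede-green 72h replicate 3 or Kaede-red 72h replicate 1 or 4, with adjusted p up to 0.111. Each of these Prdx5 calls was lost with the Rn45s share as a covariate and when scaled by counts outside Rn45s. Under that scaling the value was 0.0028 at 24h and -0.02 over both times.

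Prdx1, the abundant cytosolic peroxiredoxin and an NRF2 target, had no called difference between the colours at either time. It ranged from 43.8 to 100 CPM in Kaede-green and from 43.9 to 75.9 CPM in Kaede-red libraries at 24h, and from 38.0 to 56.2 and from 30.6 to 49.2 CPM at 72h. The log2 fold change of Prdx1 over both times was -0.26 (approximate 95% interval -0.57 to 0.05, adjusted p = 0.260 by edgeR's test), so that a fall of about the size of that of Gpx1 was within the interval. Prdx6, which reduces phospholipid peroxides and also acts as a phospholipase, was at 25.1, 24.6, 20.4 and 14.7 CPM in Kaede-green, against 17.0, 14.6, 11.4 and 10.9 CPM in Kaede-red libraries at 24h. At 72h it was at 20.1, 10.4, 9.73 and 16.6 CPM in Kaede-green, against 16.8, 14.3, 16.6 and 10.7 CPM in Kaede-red libraries, and both sets overlapped. Its log2 fold change was -0.64 (SE 0.25, adjusted p = 0.114) at 24h and 0.04 (SE 0.24, adjusted p = 0.937) at 72h. The change of that difference with time, 0.68 (SE 0.35, adjusted p = 0.347), did not pass edgeR's test.

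Ratios of counts within a library do not depend on how libraries are scaled. The pairs were chosen after the levels had been seen, so they are given as description only. Prdx5 had 1.18 ± 0.166 counts per count of Prdx1 in Kaede-green against 0.730 ± 0.0578 in Kaede-red cells at 24h, with 1.38 ± 0.177 and 1.05 ± 0.112 at 72h (mean ± SD, n = 4), with no overlap between the colours at either time. Gpx4 had 0.203 ± 0.0275 counts per count of Gpx1 in Kaede-green against 0.140 ± 0.0223 in Kaede-red cells at 24h, with 0.189 ± 0.0510 and 0.113 ± 0.0206 at 72h, again with no overlap. Prdx2 per Prdx1 was 0.459 ± 0.0394 and 0.293 ± 0.0878 at 24h and 0.544 ± 0.187 and 0.365 ± 0.0448 at 72h, with overlap at 72h. Prdx6 per Prdx1 was 0.305 ± 0.0427 in Kaede-green against 0.223 ± 0.0263 in Kaede-red cells at 24h, but 0.321 ± 0.161 and 0.379 ± 0.0543 at 72h. Txn1 per Txnrd1 and Sod1 per Sod2 overlapped between the colours at both times. At 24h the former was 2.00 ± 1.18 in Kaede-green against 1.27 ± 0.221 in Kaede-red cells, and the latter 2.92 ± 2.06 against 2.23 ± 0.213.

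**Figure D3:**
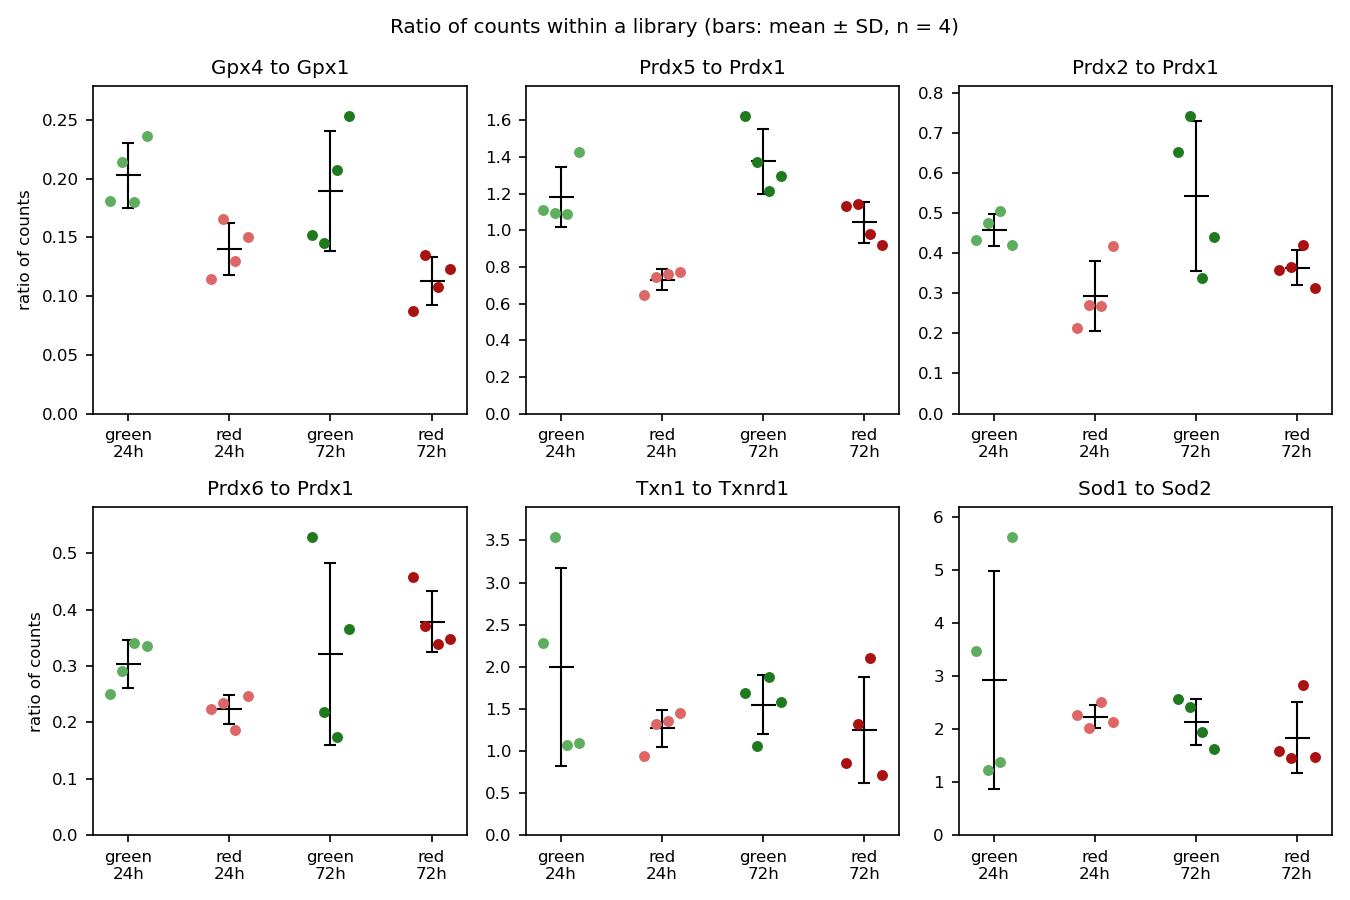
Ratio of the counts of 2 genes within each library for 6 pairs, on linear axes from 0. Points are libraries and bars the mean ± SD of the 4 libraries of a group. Prdx5 to Prdx1 and Gpx4 to Gpx1 are lower in every Kaede-red library than in every Kaede-green library of the same time, Prdx6 to Prdx1 overlaps at 72h, and Txn1 to Txnrd1 and Sod1 to Sod2 overlap at both times.

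In the thioredoxin pair, Txn1, the small dithiol protein that reduces most peroxiredoxins, fell and Txnrd1, the selenoenzyme that reduces it, did not pass the test. Txn1 was at 26.8, 37.7, 24.5 and 19.6 CPM in Kaede-green, against 13.5, 16.9, 19.6 and 17.96 CPM in Kaede-red libraries at 24h. At 72h it was at 27.0, 17.7, 26.5 and 18.5 CPM in Kaede-green, against 13.7, 15.0, 20.7 and 9.46 CPM in Kaede-red libraries. The 24h groups did not overlap, by a small margin, and the 72h groups did. Its log2 fold change was -0.65 (SE 0.17, adjusted p = 0.00514) over both times and was called in all 16 fits that left out 1 library, while -0.68 (SE 0.24, adjusted p = 0.0867) at 24h and -0.63 (SE 0.24, adjusted p = 0.0637) at 72h were not called by edgeR's test. The Txn1 call over both times was lost with the Rn45s share as a covariate. It was also lost when scaled by counts outside Rn45s, which turned the value to 0.10. Txnrd1 was between 9.83 and 22.9 CPM in all 16 libraries, with a log2 fold change over both times of -0.23 (approximate 95% interval -0.56 to 0.09, adjusted p = 0.346 by edgeR's test).

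Of the superoxide dismutases, Sod1 fell over both times with a log2 fold change of -0.46 (SE 0.15, adjusted p = 0.0259), and the call was lost without Kaede-red 24h replicate 3 or 4, Kaede-green 72h replicate 2 or 3 or Kaede-red 72h replicate 4, with adjusted p up to 0.0597. The Sod1 call was also lost with no filter and with the Rn45s share as a covariate. Scaling by counts outside Rn45s lost it too and turned the value to 0.28. Sod1 was between 17.2 and 30.2 CPM in the 8 Kaede-green libraries and between 14.4 and 21.02 CPM in the 8 Kaede-red libraries. At each time alone its values, -0.38 (SE 0.22, adjusted p = 0.329) at 24h and -0.55 (SE 0.21, adjusted p = 0.0664) at 72h, did not pass edgeR's test. Sod2 was at 5.32 to 16.1 CPM in Kaede-green and 6.35 to 11.8 CPM in Kaede-red libraries, with a log2 fold change of -0.34 (approximate 95% interval -0.72 to 0.03, adjusted p = 0.220 by edgeR's test). With 13 to 63 counts per Kaede-green 24h library and a coefficient of variation of 48.5%, Sod2 was the least precisely measured of the 10 genes in that group.

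By time point, 3 of the 10 genes (Gpx4, Prdx2 and Prdx5) were called lower at 24h, beside 4.28% of all tested genes called lower and 7.50% in either direction. At 72h 4 genes (these and Gpx1) were called lower, beside 8.76% lower and 16.8% in either direction. None was called higher at either time, though scaling by counts outside Rn45s turned the direction of 9 of the 10 genes at 24h and of 4 at 72h, and called 2 higher (Prdx1 and Gpx1) and none lower at 24h, and 1 higher (Prdx6) and 1 lower (Gpx4) at 72h. Under that scaling all 10 genes lay below the median of all tested genes, which was 0.91 at 24h and 0.69 at 72h. The count at 24h ran from 1 without Kaede-green 24h replicate 1 or replicate 2 to 5 without replicate 4 of that group. Beside these, 5.44%, 6.51% and 7.77% of all tested genes were called in either direction. Among all fits that left out 1 library, this 24h share ran from 5.03% to 7.77%. The count at 72h was 1 without Kaede-red 72h replicate 1 or replicate 4 and 2 without Kaede-green 72h replicate 3. The share of all tested genes was then 11.8%, 13.2% and 12.7%, and it reached 19.4% without Kaede-green 24h replicate 4. DESeq2 called 3 of the 10 genes at 24h, beside 4.31% of its tested genes, and 5 at 72h, beside 9.17%. Passing the test at 1 time and not at the other is not a difference between the times: when the difference between the colours was compared between the times, none of the 10 genes was called by edgeR's or DESeq2's test or had an unadjusted p under 0.05 (0.757% of all tested genes were called by edgeR), and for Gpx4 this change was -0.58 (SE 0.34, adjusted p = 0.417).

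**Figure D4:**
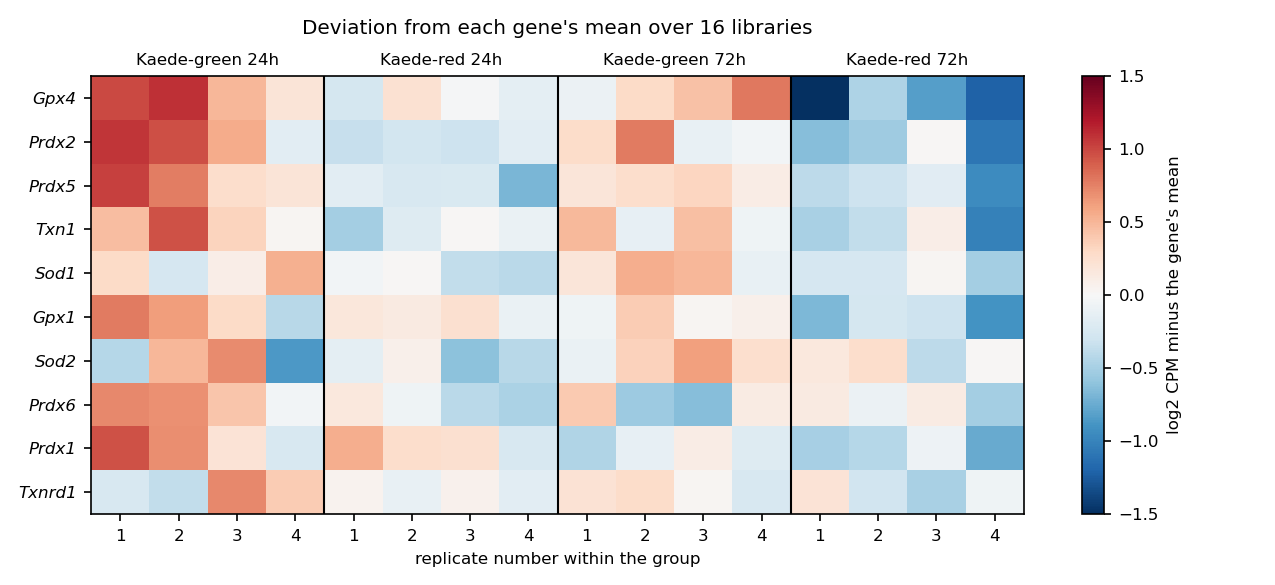
Log2 CPM of each gene in each library minus the mean of that gene over the 16 libraries, on a colour scale from -1.5 (blue) to 1.5 (red). Rows are ordered by log2 fold change over both times and columns are the 4 replicates of each group. The Kaede-red 72h block is blue across the Gpx4 row, and Kaede-green 24h replicates 1 and 2 are red in the Gpx4, Prdx2 and Prdx5 rows.

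Comparing 72h with 24h within a colour asks whether cells of that colour differed between harvests. In Kaede-green cells none of the 10 genes, and 0% of all tested genes, was called by edgeR's test (835 of 9642 genes had an unadjusted p under 0.05, and DESeq2 called 14 genes, none of the 10). Of the 10 genes, 2 had an unadjusted p under 0.05. The values were negative for 8 of the 10 genes, and that of Prdx1 was -0.61 (SE 0.23, adjusted p = 0.436). In Kaede-red cells 1 gene was lower at 72h, beside 3.76% of all tested genes called lower and 8.68% in either direction. This was Gpx4, with a log2 fold change of -0.92 (SE 0.23, adjusted p = 0.0133) and no overlap between the Kaede-red groups. That call was lost without Kaede-red 24h replicate 2, Kaede-red 72h replicate 1 or Kaede-red 72h replicate 4, with adjusted p up to 0.0846. Gpx1, at -0.63 (SE 0.21, adjusted p = 0.0624), also had no overlap between the Kaede-red groups and missed the threshold, as did Prdx1 at -0.66 (SE 0.22, adjusted p = 0.0577). Under 7 of 10 alternative settings, DESeq2 among them, these 2 genes were called as well, which made 3. DESeq2 called 5.65% of its tested genes in this comparison. Fits that left out 1 library called 0 to 3 of the 10 genes, beside 2.87% to 11.3% of all tested genes.

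Cell type markers also differed between the colours, some lower and some higher in Kaede-red cells. Summed fibroblast markers had group medians of 44.1 CPM (24h) and 49.2 CPM (72h) for Kaede-green, against 28.8 CPM (24h) and 17.3 CPM (72h) for Kaede-red cells, and Col1a1, Col1a2 and Col3a1 were called lower in Kaede-red cells over both times. Summed endothelial markers had group medians of 14.1 CPM (24h) and 13.9 CPM (72h) for Kaede-green, against 22.1 CPM (24h) and 32.7 CPM (72h) for Kaede-red cells, with no overlap between the colours at either time; of the 3 tested, Pecam1 and Kdr were called higher and Cdh5 lower in Kaede-red cells over both times. Of 9 macrophage markers, 7 were called higher in Kaede-red cells over both times and Lyz2 lower. Their summed level had group medians of 1712 CPM (24h) and 1271 CPM (72h) for Kaede-green, against 939.7 CPM (24h) and 1330 CPM (72h) for Kaede-red cells. Summed neutrophil markers had a median of 12.25 CPM in both colours at 24h. At 72h they ran from 10.38 to 12.75 CPM in Kaede-green and from 18.85 to 23.9 CPM in Kaede-red libraries. Of 2 tested neutrophil markers, 1 was called higher in Kaede-red cells over both times. Summed markers of dividing cells had group medians of 46.9, 44.9 and 49.3 CPM in Kaede-green 24h, Kaede-red 24h and Kaede-green 72h cells and 27.4 CPM in Kaede-red 72h cells, where 2 of 7 were called lower than in Kaede-green cells. The part of these cells in the lower antioxidant transcripts was not tested. The share of Rn45s was also lower in Kaede-red cells.

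In the wider redox lists, the share of genes called lay on either side of that of all tested genes, 20.3% in either direction over both times, and nothing is read from these counts about a list as a whole. Of 17 tested other antioxidant enzymes, 1 rose and 3 fell in Kaede-red cells over both times, with a median of 0.07 beside 0.06 for all tested genes. Txnip, which binds and inhibits thioredoxin, rose by 0.75 (adjusted p = 4.85e-05), while Glrx2, a mitochondrial glutaredoxin, had a value of -1.07 (adjusted p = 0.0273), Msrb1, a selenoenzyme that repairs oxidised methionine, of -0.998 (adjusted p = 2.29e-05) and Gsr, which regenerates glutathione, of -0.85 (adjusted p = 1.37e-05). Prdx3, the mitochondrial peroxiredoxin, Prdx4, that of the endoplasmic reticulum, and Cat, catalase, were not called. Of 11 genes of glutathione synthesis and transfer, Slc3a2, the heavy chain of the cystine transporter, rose by 0.57 (adjusted p = 0.00181) and Mgst1, a membrane-bound glutathione transferase and peroxidase, had a value of -2.36 (adjusted p = 9.34e-10). Of these 6 calls, that of Glrx2 was kept in 12 of 16 fits that left out 1 library, with adjusted p up to 0.121, and the other 5 in all 16. With the Rn45s share as a covariate those of Txnip, Glrx2, Gsr and Slc3a2 were lost, with adjusted p up to 0.504 for Txnip, and those of Msrb1 and Mgst1 were kept. The call of Glrx2 was kept in 5 of 9 alternative settings, and that of Slc3a2 was also lost with offsets for GC content and length.

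Of 12 NRF2 regulators and targets, 4 rose and 1 fell over both times, beside the 20.3% of all tested genes called in either direction, with a median of 0.27. Those that rose were the ferritin chains Ftl1 (0.85, adjusted p = 0.000205) and Fth1 (0.68, adjusted p = 0.00119), which store iron, the autophagy receptor Sqstm1 (0.83, adjusted p = 3.20e-05) and Hmox1, haem oxygenase (0.64, adjusted p = 0.0243). Esd, an esterase that completes formaldehyde detoxification by glutathione, had a value of -0.66 (adjusted p = 0.000443). Nfe2l2, which encodes NRF2, was called at 72h only (0.64, adjusted p = 0.0238). All 5 calls were lost with the Rn45s share as a covariate, with adjusted p of 0.0565 for Sqstm1, 0.537 for Fth1, 0.641 for Ftl1 and 0.645 for Hmox1, and that of Hmox1 also in DESeq2's test. The Hmox1 call was kept in 13 of 16 fits that left out 1 library, with adjusted p up to 0.0765, and that of Nfe2l2 in 11, with adjusted p up to 0.0863. Of 10 NADPH-supplying genes, 2 of the pentose phosphate pathway rose, G6pdx (0.84, adjusted p = 0.00580) and Pgd (0.63, adjusted p = 0.00500), and none fell, a share close to that of all tested genes. Both calls were lost with the Rn45s share as a covariate and with offsets for GC content and length, where the value of G6pdx went down to 0.08 with adjusted p up to 0.971. Tkt was called higher at 72h only (0.80, adjusted p = 0.0160) and Taldo1 lower at 24h only (-0.78, adjusted p = 0.0338), calls kept in 13 and 12 of 16 such fits, with adjusted p up to 0.068 and 0.130.

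Gpx4, Gpx1 and Txnrd1 are selenoproteins, whose messenger RNAs recode a stop codon to insert selenocysteine. None of the 5 tested genes of selenoprotein synthesis was called by edgeR's or DESeq2's test, and 1 had an unadjusted p under 0.05. Among 11 other selenoproteins, 1 rose and 3 fell over both times, beside the 20.3% of all tested genes called in either direction, with a median of -0.31. Sepp1 (Selenop), which is secreted, rose by 0.45 (adjusted p = 0.0402), and Selk (Selenok), Selt (Selenot) and Sepw1 (Selenow) had values of -0.86, -0.67 and -0.61 (adjusted p = 0.000106, 0.000353 and 0.00760). At 72h only, Vimp (Selenos) and Sep15 (Selenof) were called lower, at -0.64 and -0.56 (adjusted p = 0.0427 and 0.0378), and Sepn1 (Selenon) higher, at 0.64 (adjusted p = 0.0387), beside the 16.8% of all tested genes called at that time. The calls of Sepp1, Vimp, Sep15 and Sepn1 were kept in 5, 6, 7 and 10 of 16 fits that left out 1 library, with adjusted p up to 0.146. Over all these lists, 15 of the 17 calls named over both times, those of Msrb1 and Mgst1 excepted, were lost with the Rn45s share as a covariate, as were the 5 named at 72h only and that of Taldo1 at 24h. Scaled by counts outside Rn45s, which left fewer genes to test, 4 of 9 tested other selenoproteins, 9 of 11 NRF2 genes, 8 of 9 NADPH genes, 9 of 15 other antioxidant enzymes and 7 of 10 glutathione genes were called higher over both times, beside 65.7% of all genes tested under that scaling, and of these genes only Mgst1 was called lower.

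**Figure D5:**
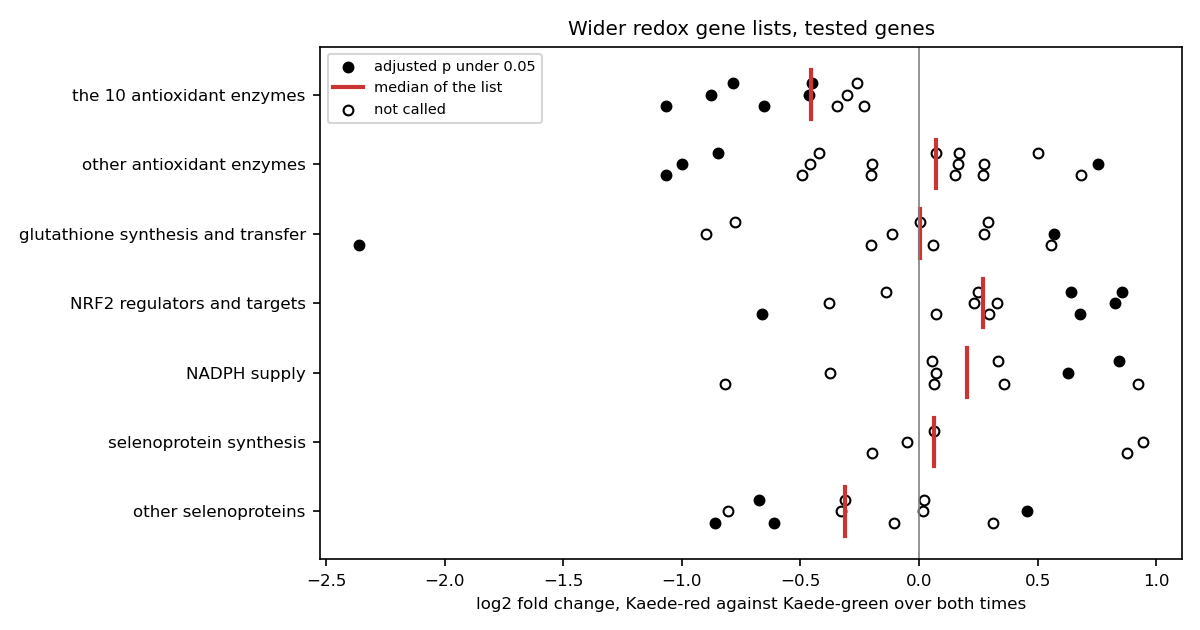
Over both times, the log2 fold change of Kaede-red against Kaede-green cells for the tested genes of 7 lists, 1 point a gene, spread vertically for legibility only. Filled points have an adjusted p under 0.05 by edgeR's quasi-likelihood test and red lines mark the median of each list. All 10 of the enzymes described lie left of 0, with a median of -0.46, and the lowest point, at -2.36, is Mgst1.

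In GENCODE (GRCm38), Gpx4 lies at chr10:80047166-80056439, Prdx5 at chr19:6906697-6910106 and Prdx2 at chr8:84969587-84974834. Gpx1 lies at chr9:108338903-108340343, Txn1 at chr4:57943373-57956411 and Sod1 at chr16:90220754-90226329. The models of Prdx2, Prdx5, Sod1 and Txnrd1 overlap those of Junb and Rnaseh2a, Trmt112, Scaf4 and Eid3 respectively, and whether the counting used strand is not given in the sources used here. Processed pseudogenes with 95% or more identity over at least 150 bases exist for Prdx1, Prdx2, Txn1, Gpx4 and Sod1, none of them with a row in the count table, and the closest is Gpx4-ps2 at 99.7%. Sod2 shares a stretch of 157 to 193 bases with 11 other models, 7 of which have rows. How reads that fit 2 places were counted is not given in the sources used here, so the counts of these genes are uncertain to that extent. The median GC content of the 10 genes was 49.3%, beside 49.2% for all tested genes, and their median exon length was 3046 bases, beside 4599.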

How the data were processed

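Total RNA of sorted cells was made into stranded libraries and sequenced by the authors, who trimmed reads with Trim Galore, checked them with FastQC, used HISAT2 for alignment to mm10 and featureCounts for counting reads on genes. Versions and the settings for strand and for reads that fit several places are not given in the sources used here. The deposited values are raw counts of reads per gene, not normalized. The single-sample files held the same values as the 16 columns of the combined table.

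Counts were analysed with edgeR 4.0.16 in R 4.3.3: genes kept by filterByExpr (9642), TMM factors, 1 mean for each of the 4 groups in a fit of all 16 libraries, the quasi-likelihood test (two-sided) and Benjamini-Hochberg adjustment over all tested genes, with calls at an adjusted p under 0.05. DESeq2, the tool of the study, was run in version 1.42.0 as an alternative, beside other scalings, filters, offsets, a replicate block, a covariate and leaving out each library. A prior count of 2 went into log2 CPM. The 24 pairs of replicates within groups had a chi-square per gene of 3.21 or more, so none was counted as a copy. The edgeR test was tested on simulated data with known changes. Part of these were not recovered, so a gene that was not called may still differ, and after a first criterion, a share recovered, was missed, the test was judged by an unbiased slope and a bound on false calls. Of the 24421 symbols, 98.6% matched GENCODE M21; lengths per kilobase are the union of exons of coding transcripts. Promoters are from RefSeq.

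The 10 genes and the wider lists were chosen with earlier results of these data known. From each wider list, up to 4 called genes with the largest rise and 4 with the largest fall over both times are named, and those called at 1 time only.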

Additional observations from a re-analysis of the deposited data

Results flagged for a closer look

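Prdx5 in Kaede-red 24h replicate 4 stood apart from the other 3 libraries of its group. It was at 33.8 CPM, beside 46.2 to 48.9 CPM, and the gap was 0.846 of the range of the group in log2 CPM, above Dixon's critical value for 4 samples. It was the only one of 40 sets of 4 values (10 genes in 4 groups) past that value, and chance alone passes about 1 in 20. The Prdx5 call at 24h was kept without this library and without each other library, with adjusted p of at most 0.0333.

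For Msrb1 the red-green difference changed with time by 1.41 (SE 0.32, adjusted p = 0.0379 by edgeR's interaction test), from -1.70 at 24h to -0.29 at 72h. The call was kept in 5 of 16 fits that left out 1 library, with adjusted p up to 0.1003, and in 9 of 10 alternative settings.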

How the results depend on the processing

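The number of the 10 genes called over both times was 6 under RLE or upper-quartile factors, without Rn45s, Lars2 and Mir6236, with at least 10 counts in every library, with the replicate block and with DESeq2, 8 with GC and length offsets, 4 with no filter and 1 with the Rn45s share as a covariate. The share of all tested genes called in either direction was 20.1% under RLE and 20.4% under upper-quartile factors. It was 20.3% without Rn45s, Lars2 and Mir6236, 43.8% with at least 10 counts in every library and 18.5% with the block. With offsets it was 20.8%, with no filter 10.2% and with the covariate 1.62%. At 24h the number of the 10 genes called was 6 with GC and length offsets, beside 11.2% of all tested genes. It was 0 with the covariate, beside 2.14%, and 2 or 3 in the other settings with all libraries. Among those, the share was 3.35% with no filter and 18.9% with at least 10 counts in every library. The 72h count was 6 with at least 10 counts in every library or only the groups compared, 5 under RLE factors, without Rn45s, Lars2 and Mir6236, with the block, offsets or DESeq2, 4 under upper-quartile factors, 2 with no filter and 1 with the covariate. Of all tested genes at 72h, 42% were called with at least 10 counts and 21.3% with only the groups compared. The share was 16.8% under RLE or upper-quartile factors and without Rn45s, Lars2 and Mir6236. It was 16.2% with the block, 15.3% with offsets, 9.57% with no filter and 1.05% with the covariate. Scaled by counts outside Rn45s, the counts were 4 (all higher) over both times, 2 (both higher) at 24h and 2 (1 in each direction) at 72h. Beside these, 68.5%, 53.8% and 43.5% of all tested genes were called in either direction. In Kaede-red cells between the harvests the number was 3 under RLE factors, upper-quartile factors, counts outside Rn45s, without Rn45s, Lars2 and Mir6236, at least 10 counts in every library, only the groups compared and DESeq2. Of all tested genes, 31% were then called with at least 10 counts in every library and 15.9% with only the groups compared. The share was 8.31% under RLE factors, 8.46% under upper-quartile factors, 7.26% with counts outside Rn45s and 8.62% without Rn45s, Lars2 and Mir6236. Shares under DESeq2 and without 1 library are given with the main comparisons. Leaving out 1 library gave 4 to 6 genes over both times, 1 to 5 at 24h, 1 to 6 at 72h, 0 to 3 for time in Kaede-red cells, and 0 for time in Kaede-green cells and for the change with time.

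Scaled by counts outside Rn45s, log2 fold changes over both times turned to 0.51 (Prdx1), 0.47 (Prdx6), 0.10 (Txn1), 0.53 (Txnrd1), 0.33 (Gpx1), 0.28 (Sod1), 0.43 (Sod2), 0.10 (Esd), 0.13 (Sepw1) and 0.073 (Selt). At 24h they turned to 0.69 (Prdx1), 0.0028 (Prdx5), 0.27 (Prdx6), 0.22 (Txn1), 0.59 (Txnrd1), 0.66 (Gpx1), 0.14 (Gpx4), 0.49 (Sod1), 0.49 (Sod2) and 0.12 (Taldo1). At 72h they turned to 0.32 (Prdx1), 0.46 (Txnrd1), 0.076 (Sod1), 0.38 (Sod2), 0.31 (Msrb1), 0.015 (Vimp) and 0.094 (Sep15). This setting removes no composition difference, and its shift of the median of all genes is given with the comparison; the cause was not tested. The value of Prdx6 at 72h, near 0, turned to -0.0011 with RLE factors, -0.17 with the covariate, -0.15 with GC and length offsets, and ran from -0.13 to 0.23 when 1 library was left out, negative without Kaede-green 72h replicate 2 (-0.10) or 3 (-0.13) or Kaede-red 72h replicate 1 (-0.04) or 3 (-0.0037). Of 1769 single-gene values over all alternatives, 1505 kept direction and call, 189 lost the call, 41 gained one and 34 turned.

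Same-numbered Kaede-green and Kaede-red libraries had correlations of -0.0183 to 0.153 (over 0.1 in 1 of 8 pairs). The numbers were not taken to pair samples, though at 24h replicates 1 and 2, and 3 and 4, deviated together across colours. The replicate block gave 6, 3, 5 and 0 of the 10 genes over both times, at 24h, at 72h and for the change with time. No paired analysis was possible for 72h against 24h because the blocks lie within a time. A fit of only the groups compared is the same fit over both times and for the change with time. With 13 to 63 counts of Sod2 in a Kaede-green 24h library, small differences of the low genes were not detectable at this depth.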
